A study of Mus musculus with 6 samples.

Results

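The genes described here are the cardiac miRNA genes Mir208a, Mir208b and Mir133b and the myosin heavy chain genes Myh6 and Myh7, which hold the miR-208 genes. They were chosen by name, through their Ensembl identifiers, and all 5 were found among the 10065 genes of the deposited table, 3 of them among its 134 genes of class miRNA. The table belongs to a study of short RNA from whole hearts of SV129 mice at postnatal day 6, with 3 ADAR2_KO animals (Adarb1-/-, Gria2R/R) and 3 wild type siblings. By the study's methods the animals were female, the wild type siblings (Adarb1+/+) carried Gria2R/R as well, and the replicates were biological. Adarb1 encodes ADAR2, an enzyme that converts adenosine to inosine in double-stranded RNA, and Gria2R/R is a glutamate receptor gene in the edited form, which rescues mice without ADAR2 from early death. By these methods every heart carried the Gria2R/R allele, although the genotype label of the wild type samples does not name it.

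The level used throughout is the authors' mean normalized count of a gene, that is, its reads after scaling of each library, averaged over the samples. The table does not name the samples behind it and gives no value per animal, so ADAR2_KO and wild type hearts are taken to be pooled in it. Its error is unknown, and of the depth the study's methods give only a minimum number of reads per sample, so no interval can be given, and no comparison of the genotypes was made from it. For the same reason the genotype labels could not be checked on Adarb1 itself, whose pooled mean was 16.6. The order of genes below is the order of these pooled means, and whether neighbours in it differ beyond the spread between animals cannot be told. The libraries were of small RNA. The mean of a protein-coding gene therefore counts short reads and cannot be taken as the level of its messenger RNA.

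MicroRNAs are cut from hairpin precursors and guide Argonaute proteins to messenger RNAs, mainly through the seed, bases 2 to 8 of the mature strand. Those enriched in striated muscle are known as myomiRs. Mir208a lies in Myh6, the gene of the fast alpha myosin heavy chain, and Mir208b in Myh7, the gene of the slow beta chain, so that each miRNA is transcribed together with a motor protein of the sarcomere. Rodent hearts pass from the beta chain before birth to the alpha chain in the adult. Mir133b belongs to a pair of miRNA genes with Mir206, which is known mainly from skeletal muscle.

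The hairpins of the 3 miRNA genes are shown because they are the stretches on which the measured reads lie; capitals mark the mature strands of the 5′ and the 3′ arm. Sequences are those of RefSeq (GRCm38.p6), in which all 3 genes were found.
Mir208a hairpin: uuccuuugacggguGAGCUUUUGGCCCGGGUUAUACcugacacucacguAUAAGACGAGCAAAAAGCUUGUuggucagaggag
Mir208b hairpin: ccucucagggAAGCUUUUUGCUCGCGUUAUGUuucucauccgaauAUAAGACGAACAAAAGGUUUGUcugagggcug
Mir133b hairpin: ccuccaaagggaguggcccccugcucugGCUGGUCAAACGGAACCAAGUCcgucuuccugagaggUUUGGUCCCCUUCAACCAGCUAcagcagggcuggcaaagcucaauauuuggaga

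The mature strands of the 3′ arms are given below with the seed in capitals, to show what the miRNAs share.
mmu-miR-208a-3p: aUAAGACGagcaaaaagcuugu
mmu-miR-208b-3p: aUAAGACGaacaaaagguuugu
mmu-miR-133b-3p: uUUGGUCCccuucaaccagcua

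miR-208a-3p and miR-208b-3p had the same seed, UAAGACG, which 2 of the 1738 mature miRNAs in the RefSeq table hold, these 2 alone. Outside the seed they differed at 3 of 22 positions, counted from 1 at the 5′ end of miR-208a-3p: G10A, A16G and C18U. Their longest shared stretch was 9 bases, and that of the hairpins 10 bases. The strands of the 5′ arms also shared a seed, AGCUUUU, and differed at 6 of 22 positions. Stretches of 18 bases of the 4 mature miR-208 strands occurred exactly in no annotated transcript other than the hairpin each belongs to, so reads of that length mapped without mismatch tell Mir208a from Mir208b. The study's methods also describe a mapping to mature miRNA sequences that allowed mismatches, for which this does not follow. The 3′ strand of Mir133b is different: stretches of 18 bases of it also occur in Mir133a-1 and Mir133a-2, so its reads may be shared with these genes. How the authors counted reads with several matches is not given in the sources used here. The table counts reads per gene, so the arms of a hairpin cannot be told apart in it.

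Mir208a (ENSMUSG00000065432, chromosome 14, 54949060 to 54949142, minus strand) lies 17785 bases from the annotated start of Myh6 (ENSMUSG00000040752, 54941921 to 54966927), on the same strand. In both long Myh6 transcripts it falls in intron 29 of 38, an intron of 542 bases, and is 264 bases from the next exon. Mir208b (ENSMUSG00000077928, chromosome 14, 54975700 to 54975776, minus strand) lies 18850 bases from the start of Myh7 (ENSMUSG00000053093, 54970684 to 54994626). In both long Myh7 transcripts it falls in intron 31 of 40, which has 461 bases, and is 282 bases from the next exon. The myosin genes follow each other on the minus strand, with Myh7 upstream and 3756 bases between them. Mir133b (ENSMUSG00000065480, chromosome 1, 20682769 to 20682887, plus strand) lies within an exon of the lincRNA gene Gm28653 (ENSMUSG00000099906, 20669882 to 20684298), 3686 bases downstream of Mir206. These positions are those of GENCODE M21 (GRCm38), whereas the submitters' processing notes name the older build mm9 for the reads.

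**Figure D1:**
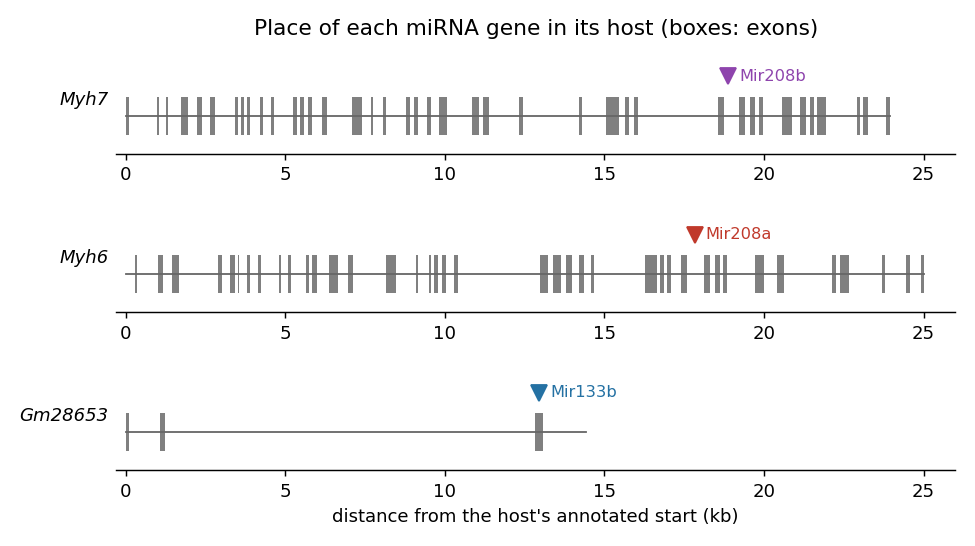
Place of Mir208b, Mir208a and Mir133b (triangles) in their host genes, with the distance from the annotated start of the host in kb on the x axis and exons of 1 transcript per host as boxes. Mir208b and Mir208a sit in introns, 18850 and 17785 bases from the start of their hosts, while Mir133b sits in the last of the exons drawn for Gm28653.

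The miR-208 genes were among the miRNA genes with the highest pooled means. How reads that match several genes were counted is not known. The ranks and shares below are therefore those of rows, and miRNA abundance in the heart may be ordered otherwise. Mir208b had a mean normalized count of 937.6, the highest of the 134 miRNA genes and rank 15 of all 10065 genes. Mir208a had 413.0, rank 4 of the miRNA genes and rank 59 of all genes. Between them lay only Mir126a and Mir126b, endothelial miRNA genes on opposite strands of the same place, with the identical mean of 675.2. Mir208b was 1.39 times the next gene below it, and Mir208a was 1.43 times Mir143, a miRNA gene of smooth muscle, just below it. The median miRNA gene had a mean of 7.64, so Mir208b stood 122.7 times and Mir208a 54.0 times above it. Mir208b alone held 17.1% of the summed mean of all miRNA genes, Mir208a held 7.55%, and the pair held 24.7%.

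Mir133b was far lower, with a mean of 32.9. This was rank 26 of the miRNA genes and 0.602% of their summed mean. Its neighbours in the order, Mir379 with 33.7 and Mir125b-1 with 32.6, differed from it by factors of 1.02 and 1.01, too close to set an order without an error. Mir208b was 28.5 times and Mir208a 12.5 times as high as Mir133b.

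**Figure D2:**
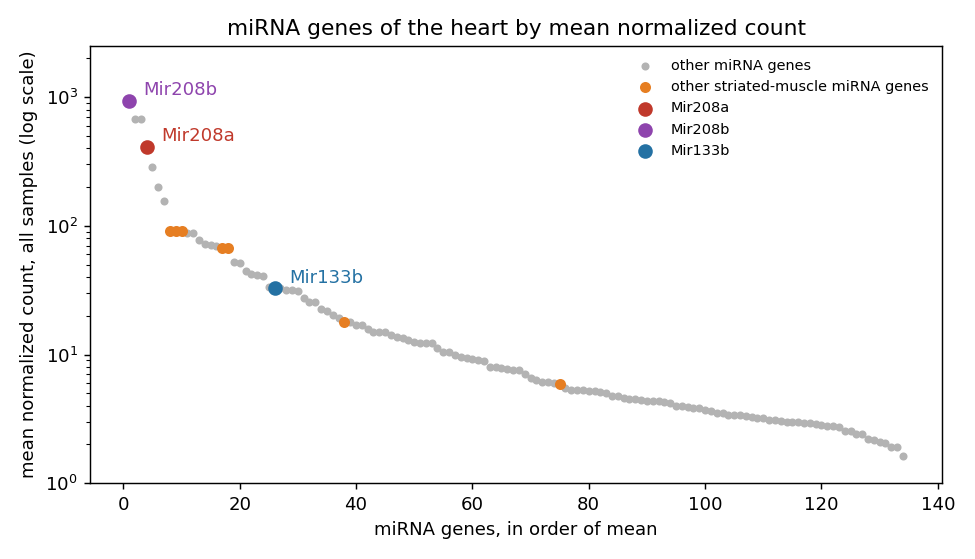
The 134 miRNA genes in order of their mean normalized count over all samples (y axis, log scale), with Mir208b, Mir208a and Mir133b and the other striated-muscle miRNA genes in colour. Mir208b is at the top with 937.6 and Mir208a is in 4th place with 413.0, while Mir133b lies at 32.9, below the other myomiRs of the miR-1 and miR-133a families.

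Of a list of 12 miRNA genes of striated muscle, Mir206 and Mir486b are not analysed here, and the name Mir486b was not found in the annotation used. The other 10 had a row in the table. The 3 genes described here held 76.2% of the summed mean of these 10, nearly all of it on the miR-208 genes. This share, and the gaps below, depend on how reads matching several genes, such as Mir133a-1 and Mir133a-2, were counted, which is not known. Mir1a-1 had a mean of 90.5, and Mir1a-2 and Mir1b, which overlap on opposite strands, had the identical mean of 91.2. Of the genes of miR-133, Mir133a-2 had 67.4 and Mir133a-1 had 67.1, which is 2.05 and 2.04 times the mean of Mir133b. Mir499, the myomiR gene in Myh7b, was the lowest of the list with 5.87, so Mir208b was 159.8 times and Mir208a 70.4 times as high. miR-499-5p and miR-208a-3p differ at base 8 of the seed (G8U) and are identical at 12 of 21 positions. Mir486, a miRNA gene in the erythroid and muscle gene Ank1, had 17.98. Mir3107, on the opposite strand in Ank1, had the identical mean and is not part of the list or of the share.

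The host genes had nearly the same means as the miRNA genes inside them. Myh7 had a mean normalized count of 943.4, rank 14 of all genes, next to Mir208b. Myh6 had 424.5, rank 58, next to Mir208a. The mean of Mir208b was thus 99.4% of that of Myh7, and the mean of Mir208a 97.3% of that of Myh6. Gm28653, which spans Mir133b, had a mean of 33.2, of which Mir133b made up 99.3%. In each of the 3 pairs the host was the higher row, by 5.75 for Myh7, 11.6 for Myh6 and 0.243 for Gm28653. These differences are called the rest of the host below; they hold the reads outside the miRNA gene if each read of the miRNA was also counted on its host, which the sources used here do not state. All 10065 rows of the table are of the feature gene, not exon.

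**Figure D3:**
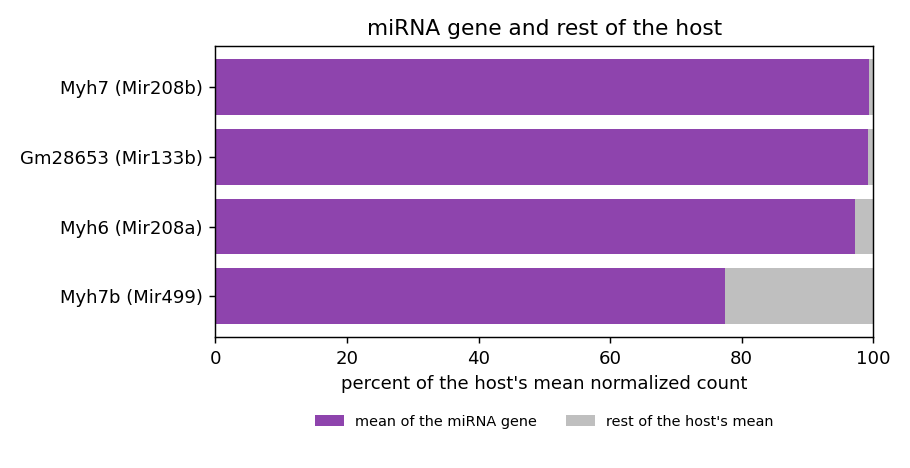
Mean normalized count of each host gene (x axis, percent of the host's mean) split into the mean of the miRNA gene it holds and the rest. The miRNA gene makes up 99.4% of Myh7, 99.3% of Gm28653, 97.3% of Myh6 and 77.4% of Myh7b.

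The ratio of beta to alpha genes depended on whether the rest of the host or its whole row was taken. Mir208b was 2.27 times Mir208a, and the whole row of Myh7 was 2.22 times that of Myh6. Per kb of annotated gene these ratios were 2.45 and 2.32. For the rest of the hosts the order turned: Myh6 had 11.6 and Myh7 5.75, so Myh7 was 0.498 times Myh6. The rest of both hosts together came to 17.3, against 1351 on the 2 miR-208 genes. With no value per animal, no error can be set on these small differences.

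Per kb of annotated span, the whole rows of Myh7 and Myh6 had means of 39.4 and 17.0. The rest of Myh6 was 0.464 per kb and that of Myh7 0.241 per kb, against a median of 0.118 per kb over 8409 protein-coding genes, of which 86.5% were lower than the rest of Myh6 and 75.7% lower than the rest of Myh7. Of 20 other genes known as cardiomyocyte markers, 13 had a row, with means from 2.59 for Tnni1 (slow troponin I) to 82.9 for Ttn, the giant spring protein titin. Their median was 0.285 per kb, and they ranged from 0.0820 for Tnni1 to 1.60 per kb for Actc1, which encodes cardiac actin. Above the rest of Myh6 per kb lay 3 of these 13, Actc1, Pln (phospholamban, 0.648) and Mybpc3 (cardiac myosin binding protein C, 0.537). Above the rest of Myh7 lay 8. Thus the whole rows of the myosin genes stood above all 13 markers per kb, and their rests lay within the range of these markers. Tnni3, Tnnc1, Myl7, Nppa, Nppb, Des and Ckm have no value here. All these values count short reads and are not messenger RNA levels. In tissue, fewer cells of a type and less RNA per cell cannot be told apart.

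**Figure D4:**
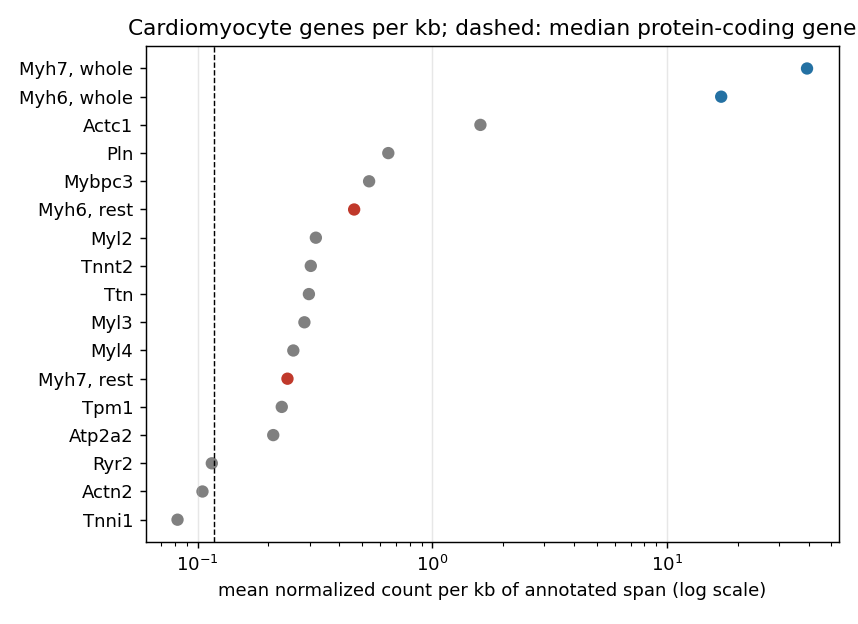
Mean normalized count per kb of annotated span (x axis, log scale) for 13 cardiomyocyte genes (grey), the whole rows of Myh6 and Myh7 (blue) and their rest after the miR-208 gene inside is subtracted (red). The whole rows lie at 17.0 and 39.4 per kb and the rests at 0.464 and 0.241 per kb, among the other genes. The dashed line is the median protein-coding gene, 0.118 per kb.

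The same tie of miRNA and host was looked for in the other miRNA genes of the table. Of 68 miRNA genes that lie inside another gene on the same strand, 64 had a mean below that of every such host. Mir125b-1, Mir30c-2 and Mir142 each had a host with a mean equal to their own. Mirlet7a-1 was the exception in the other direction, with 51.1 against 28.0 for the lincRNA gene 6720427I07Rik. Together with Mirlet7f-1 and Mirlet7d, which lie in the same host, the miRNA means came to 104.6, so not every miRNA read was counted on that host. Mirlet7d alone made up 99.0% of the mean of that host. The spans are those of GENCODE M21, and whether the authors' annotation gave this host the same span is not known. In Mir133a-1hg, by contrast, Mir1a-2 and Mir133a-1 summed to 158.3 against 158.4 for the host. The rests of Myh6 and Myh7, and the turned order between them, hold only under the second kind of counting, and which kind applied to these genes was not tested. Among the 42 pairs with a protein-coding host the miRNA made up a median of 44.2% of the host's mean, from 1.54% to 99.9%. Over 95% were 5 pairs, among them Mir208b in Myh7 in 3rd and Mir208a in Myh6 in 5th place, beside Mir126a in Egfl7 (99.9%) and Gm20532 (99.3%) and Mir22 in Tlcd2 (99.6%). The miR-208 pairs therefore share their near equality with these pairs and are not set apart by it. Mir499 in Myh7b was in 14th place with 77.4%, a rest of 1.71.

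The shares ranged widely, also among hosts of like size. In the 13 pairs whose miRNA had a mean of at least 10, the median share was 90.7%, a split that sorts on the numerator of the share itself. In the 21 pairs with a host span under 30 kb, Myh6 (25.0 kb) and Myh7 (23.9 kb) among them, the median was 77.8%, and in the 21 pairs with a longer host 25.4%. Single pairs went the other way, with 2.26% for Gm23388 in Zfp791 (14.5 kb) and 99.3% for Mir126a in Gm20532 (49.0 kb). The part of host size in the share was not tested.

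**Figure D5:**
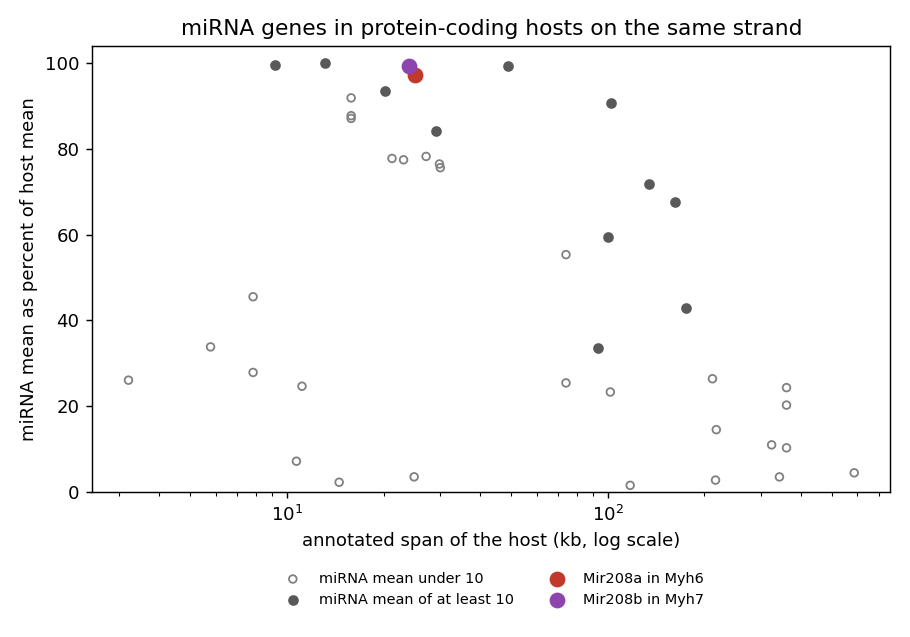
Mean of the miRNA gene as a percent of its host's mean (y axis) against the annotated span of the host in kb (x axis, log scale), for the 42 pairs with a protein-coding host on the same strand. Filled points have a miRNA mean of at least 10. Mir208a in Myh6 (97.3%) and Mir208b in Myh7 (99.4%) lie near the top, at host spans of 25.0 and 23.9 kb.

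Strand and antisense genes bear on how the members' rows can be read. All 14 pairs of miRNA genes that overlap on opposite strands had identical means, such as Mir1a-2 and Mir1b, so the table holds no difference by strand there. With hosts on the opposite strand, the shares were as unlike as 99.2% for Mir328 in Elmo3 and 1.56% for Mir214 in Dnm3. Mhrt, a noncoding RNA gene antisense to Myh7, is not analysed here. Whether reads from its strand were counted on Myh7, and lie in its rest, is therefore not known. Of the other sarcomeric myosin heavy chain genes, Myh7b had a mean of 7.57, the perinatal Myh8 5.56, the fast Myh2 3.08 and Myh13 2.07. These were low beside the whole rows of Myh7 and Myh6, but not all were low beside the rests. Myh8 lay near the rest of Myh7, 5.75, and Mir499 made up 77.4% of the mean of Myh7b. Myh15, with 4563, had the highest mean of the whole table, although no other analysed row lies inside its span.

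Genes of other cells were looked up too, although the presence of a row cannot check the tissue label. Of 22 cardiomyocyte genes only 15 had a row, and the share of all annotated genes with a row was not computed. A missing row therefore does not show that a cell type was absent. Of 16 skeletal muscle genes 4 had a row, Acta1, Myh2, Myh8 and Pax7, with means up to 5.79, while the myogenic factors Myod1, Myog, Myf5 and Myf6 had none. Endothelial genes had a row for 5 of 6, with a highest mean of 11.6 for Pecam1, and fibroblast genes for 5 of 6, with a highest of 44.8 for Col3a1. Of smooth muscle genes 0 of 4, of red blood cell genes 4 of 5 and of leukocyte genes 1 of 3 had a row, the last being Ptprc with 7.93 and the highest red blood cell gene Hba-a2 with 4.85. Per kb of span the order of the lists was another: the short globin genes had a median of 3.49 over the red blood cell list and 5.99 for Hba-a2, above each of the 13 cardiomyocyte markers, while Acta1 had 1.94 per kb. The part of these cells in the levels of the miRNA genes was not tested.

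Of 10 genes whose messenger RNAs are described as targets of miR-208 or miR-133, 5 had a row under the names used. Their means count short reads and are not messenger RNA levels. Med13, a Mediator subunit and known target of miR-208a, had a mean of 5.89, and Sox6, a transcription factor that represses slow muscle genes, had 35.6 over a long gene, or 0.0627 per kb. Sp3 had 3.17, Cdc42 3.42 and Rhoa 4.98. Their median, 4.98, lay below the median of 6.65 over all genes of the table, although Sox6 lay above 89.9% of them. These medians are not scaled to gene length, and the listed genes without a row have no level here. The name Ctgf was not found in the annotation used, so whether that gene has a row is not known. Whether the miRNAs act on these genes was not tested.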

How the data were processed

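Adaptors were clipped by the authors with Cutadapt, reads aligned with Bowtie and genotypes tested with DESeq, and the submitters' notes name build mm9. The methods further describe a mismatch-tolerant mapping to mature miRNA sequences with NextGenMap, and which mapping the table rests on is not stated. Versions, the annotation and the handling of overlapping genes and repeated matches are not given in the sources used here. The deposited signal used here is the mean normalized count: the authors scaled each library and averaged over samples that the table does not name. Its other measures, the authors' fold changes, standard errors, statistics and p-values for the genotypes, were not used, and no value per sample was available to test.

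Names and positions came from GENCODE M21 (GRCm38) for 10005 of 10065 identifiers. The means summed to 214408, of which 2.55% lay on miRNA genes, and the lowest was 1.09. A host is any gene, other than of class miRNA or misc_RNA, whose span holds a miRNA gene. Shares, ranks and ratios were computed with Python 3.11.15, numpy 2.4.6 and pandas 2.3.3, and the host search was tested on simulated data. Named genes were the members, other myomiR and sarcomeric myosin genes, the 5 highest miRNA genes, neighbours in the order, hosts, described targets and cell type markers; pairs named for a high or equal share were picked after their values were seen. Members and lists were chosen with earlier results of these data known.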

Additional observations from a re-analysis of the deposited data

How the results depend on the processing

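With the summed mean of all genes in place of that of miRNA genes, the shares were 0.437% for Mir208b, 0.193% for Mir208a and 0.0154% for Mir133b. With identical rows counted once they were 20.8%, 9.17% and 0.731%, and with means under 10 left out they were 18.3%, 8.07% and 0.644%. Ranks among all genes were 15, 59 and 1113. Among miRNA genes with identical rows counted once they were 1, 3 and 23. Per kilobase, the ratio of Mir208b to Mir208a was 2.45 and that of Myh7 to Myh6 was 2.32. After the miRNA gene was subtracted, the ratio of Myh7 to Myh6 turned to 0.498. Adding 1 to both means changed no share of a host and no ratio by more than rounding. Hosts on either strand gave 80 of 85 miRNA genes below every host, and leaving out means under 10 gave 25 of 27, since fewer genes are counted. The rest of the hosts per kilobase was added after seeing the data. No paired analysis was possible because each gene has a single pooled mean, and leaving out replicates was not run for the same reason. The limits are that no depth per library and no error is given, and that the rests of Myh6 and Myh7 are small differences of large means.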
